A study of Mus musculus with 7 samples.

Results

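The 6 entries described here are the mature microRNAs (miRNAs) of 2 mouse loci. They are mmu-miR-126a-3p and mmu-miR-126a-5p, the entries mmu-miR-126b-3p and mmu-miR-126b-5p annotated on the other DNA strand at the same place, and mmu-miR-139-5p and mmu-miR-139-3p, written below without the species prefix. They were taken by name from a combined table of 1084 entries, and all 6 were present. The table holds read counts of small RNA carried by extracellular vesicles, which are small membrane sacs shed by cells. The vesicles came from the adipose tissue of male mice of the strain C57BL/6J. There were 3 libraries of mice fed a high-fat diet (HFD 1 to HFD 3) and 4 of mice fed chow (Chow 1 to Chow 4), with 12 weeks given for both diets. The labels name no fat depot and do not say whether a library came from 1 animal or from a pool, so the p-values speak only of the variation among these 7 libraries, part or all of which may be technical.

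A miRNA is cut from a hairpin precursor as a pair of strands, named 5p and 3p after the arm of the hairpin, and usually one strand is kept and loaded into a silencing complex while the other is degraded. Bases 2 to 8 of the mature strand, the seed, choose most of its messenger RNA targets. miR-126 is made from a hairpin inside the endothelial gene Egfl7. It is known as a miRNA of the cells that line blood vessels, where its 3p strand represses Spred1 and Pik3r2, inhibitors of signalling downstream of vascular endothelial growth factor, and its 5p strand represses Dlk1. It is also abundant in platelets and in blood stem cells. miR-139 lies within Pde2a, which encodes a phosphodiesterase that degrades cyclic nucleotides. Its 5p strand is reported to repress the chemokine receptor Cxcr4 while blood vessels mature.

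The mature sequences show how little the loci share. They are printed 5′ to 3′ from RefSeq (GRCm38.p6), with the seed in capitals, for the 5 of 6 entries matched by name.
miR-126a-3p: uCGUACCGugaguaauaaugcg
miR-126b-3p: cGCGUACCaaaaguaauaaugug
miR-126b-5p: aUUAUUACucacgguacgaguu
miR-139-5p: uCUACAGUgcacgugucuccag
miR-139-3p: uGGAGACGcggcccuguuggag
The 5 seeds all differed, and none of them was found in any other of the 1679 mouse mature miRNAs of that table. No further miRNA was therefore added by these 5 seeds, and the seed of miR-126a-5p, the entry without a match, was not searched.

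The Mir126a hairpin lies on the plus strand at chr2:26591357-26591429 (GRCm38). In GENCODE M21 it falls within Egfl7 (chr2:26580014-26593120, plus strand), in an intron of 8 Egfl7 transcripts and in an exon of 1. The Mir126b hairpin covers chr2:26591363-26591420 on the minus strand. The Mir139 hairpin lies at chr7:101475376-101475443 on the plus strand, in an intron of all 10 transcripts of Pde2a (chr7:101421691-101512827, plus strand) that span it. The genome build the submitters used is not given in the sources used here.

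Total miRNA counts ranged from 1825488 to 5941955 in HFD libraries and from 48840 to 2294878 in Chow libraries, with Chow 3 (48840) and Chow 2 (180694) far shallower than the rest. A count of 0 allows up to 3 counts. This corresponds to 66.1 normalised CPM in Chow 3, to 14.1 in Chow 2 and to between 0.464 and 1.99 in the other libraries. Normalised CPM is a count put on the same library total in every library, after trimmed-mean (TMM) scaling. Floors and intervals cover counting error only, since the reads carry no molecular identifiers and may be PCR copies of each other. The separate table of the Chow libraries has no value for 485 entries in Chow 2 and in Chow 3, but all 6 entries had a written value in every library. Of 11 miRNAs listed as adipose-associated from general knowledge, all were found, led by miR-148a-3p. The table holds no messenger RNA, so the cell that released miR-126 or miR-139 could not be checked against endothelial marker genes. In bulk vesicles, fewer vesicles of a cell type and less miRNA per vesicle cannot be told apart.

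miR-126a-3p, the strand that represses Spred1 and Pik3r2, was the most abundant of the 6 in both diets and was lower in HFD vesicles. It stood at 963.5, 923.4 and 931.4 normalised CPM in HFD 1 to HFD 3 (2063, 1983 and 6023 counts). It stood at 2436, 5025, 2357 and 2473 normalised CPM in Chow 1 to Chow 4 (3671, 1069, 107 and 5185 counts). The diets did not overlap, the HFD libraries lay close together, and Chow 2 was far above the other Chow libraries. Its means were 939 ± 21.2 in HFD (SD, n = 3) and 3073 ± 1302 in Chow (SD, n = 4). By raw count it ranked between 61st and 65th in HFD libraries and between 22nd and 38th in Chow libraries. It made up 0.101% to 0.109% of the counts in HFD and 0.173% to 0.592% in Chow.

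miR-126a-3p was 3.27-fold lower in HFD (log2 fold change -1.71, SE 0.41) and passed narrowly in edgeR's quasi-likelihood test with Benjamini-Hochberg adjustment over all 385 tested entries (adjusted p = 0.0491). In this test 2.86% of entries passed in either direction and 0.779% passed as lower in HFD, and miR-126a-3p was the only one of the 5 tested entries of these loci to pass. The diets did not overlap for 22.3% of all tested entries, and for 9.35% HFD lay below. The direction was negative in all 19 alternatives, with log2 fold changes between -2.09 and -1.33, but the call held in 9 of them (adjusted p between 0.00575 and 0.206). It held without Chow 1 (adjusted p = 0.0241) and was lost when any other single library was left out: Chow 2 (0.0626), Chow 3 (0.0768), Chow 4 (0.0785), HFD 1 (0.152), HFD 2 (0.206) or HFD 3 (0.128). Without Chow 2, the highest library, the log2 fold change was -1.37. Without both shallow libraries it was -1.39, with an adjusted p of 0.0628 in edgeR and 0.0165 in DESeq2.

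**Figure D1:**
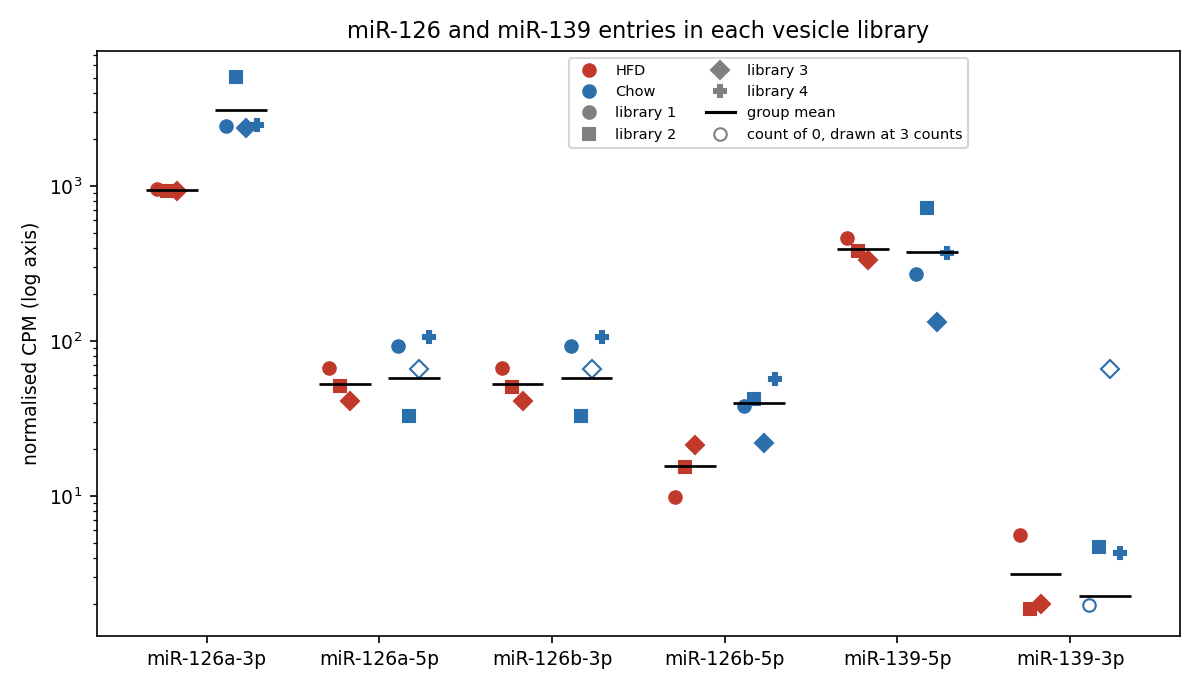
Normalised CPM (log axis) of the 6 entries in each library, HFD in red left of Chow in blue, with the library number given by the marker shape and black bars at the group means. Open markers stand for a count of 0 and are drawn at the level of 3 counts. For miR-126a-3p the HFD libraries lie between 923.4 and 963.5 and the Chow libraries between 2357 and 5025, whereas for miR-139-5p the diets overlap.

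miR-126a-5p, the partner strand, was scarce and showed no call. It had 66.8, 51.2 and 41.1 normalised CPM in HFD 1 to HFD 3 (143, 110 and 266 counts). It had 92.2, 32.9, 0 and 106 in Chow 1 to Chow 4, the last 3 on 7, 0 and 223 counts. The diets overlapped, and the deep Chow libraries, Chow 1 and Chow 4, stood above all HFD libraries while Chow 2 stood below them. The count of 0 in Chow 3 allows a level of up to 66.1, which is above those of HFD 2 and HFD 3 and close to that of HFD 1, so Chow 3 cannot be told from the HFD libraries at its depth. Its means were 53.0 ± 12.9 in HFD (SD, n = 3) and 57.9 ± 50.0 in Chow (SD, n = 4), and the fitted log2 difference of -0.36 (SE 0.65) did not pass (edgeR adjusted p = 0.808). In the 5 deeper libraries alone the difference was -0.92, which did not pass either (edgeR adjusted p = 0.205).

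Of the 2 entries named miR-126b, miR-126b-3p had almost exactly the counts of miR-126a-5p, and miR-126b-5p had a small fraction of those of miR-126a-3p. miR-126b-3p had 143, 109 and 266 counts in HFD 1 to HFD 3 and 7, 0 and 223 in Chow 2 to Chow 4. It had exactly the counts of miR-126a-5p in all libraries but HFD 2, where it had 1 count fewer. Its log2 fold change of -0.36 (edgeR adjusted p = 0.808) is therefore not a separate measurement. miR-126b-5p had 21, 33 and 138 counts in HFD 1 to HFD 3 and 57, 9, 1 and 119 in Chow 1 to Chow 4. This came to between 1.02% and 2.29% of the miR-126a-3p count in HFD libraries and between 0.842% and 2.30% in Chow libraries.

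The sequences of the site show the overlap. In the Mir126a hairpin, the miR-126a-3p strand is in capitals. The reverse complement of each miR-126b entry is given under it, with the bases that lie on miR-126a-3p in capitals.
Mir126a hairpin: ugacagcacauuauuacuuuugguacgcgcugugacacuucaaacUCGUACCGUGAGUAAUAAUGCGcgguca
miR-126b-5p reversed: aacUCGUACCGUGAGUAAUAAU
miR-126b-3p reversed: cacauuauuacuuuugguacgcg
Read in reverse, miR-126b-5p covers 19 of the 22 bases of miR-126a-3p and is shifted by 3 bases towards the hairpin loop. Reversed miR-126b-3p starts at base 7 of the hairpin, in its 5p arm. Whether strand was used in counting is not given in the sources used here, and reads of either strand at this site cannot be told apart. Of 17 pairs of entries with at least 20 counts each that, by their RefSeq positions, overlap by at least 15 bases on opposite strands, 5 had counts within 1 of each other in every library. The pair of miR-126a-5p and miR-126b-3p is not among these 17.

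**Figure D2:**
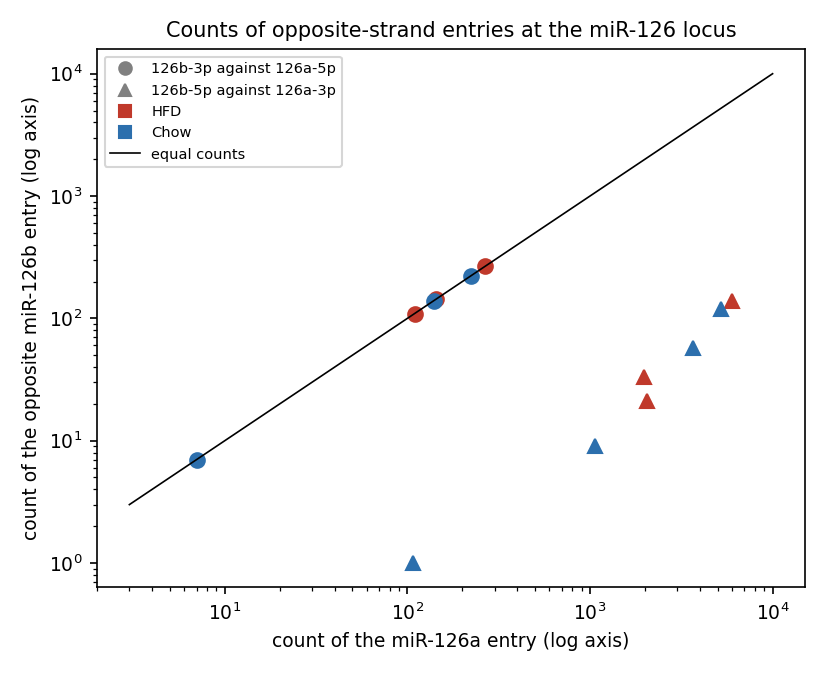
Counts of each miR-126b entry against the miR-126a entry that it overlaps on the opposite strand, 1 point per library, both axes logarithmic, HFD in red and Chow in blue. Circles (miR-126b-3p against miR-126a-5p) lie on the line of equal counts, Chow 3 with 0 for both is not drawn, and triangles (miR-126b-5p against miR-126a-3p) lie far below it, at 0.842% to 2.30%.

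miR-126b-5p had a difference close in size to that of the strand it overlaps. It stood at 9.81, 15.4 and 21.3 normalised CPM in HFD 1 to HFD 3 and 37.8, 42.3, 22.0 and 56.8 in Chow 1 to Chow 4. The diets did not overlap, with HFD below, as for 9.35% of all tested entries. HFD 3 and Chow 3 were nearly level, however, and the Chow 3 value rests on 1 count. Its log2 fold change of -1.46 (SE 0.52) did not pass (edgeR adjusted p = 0.122). Leaving both miR-126b entries out of the table left the value for miR-126a-3p at -1.71 (edgeR adjusted p = 0.0485).

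miR-139-5p, the abundant strand of the second locus, stood at a similar level in both diets. It had 459, 382 and 332 normalised CPM in HFD 1 to HFD 3 (982, 821 and 2147 counts). It had 271, 719, 132 and 369 in Chow 1 to Chow 4 (408, 153, 6 and 773 counts). The diets overlapped. The spread lay within Chow, where Chow 2 was highest, as it was for miR-126a-3p, and Chow 3 lowest, on 6 counts. Means were 391 ± 63.8 in HFD (SD, n = 3) and 373 ± 251 in Chow (SD, n = 4). The fitted log2 difference of 0.04 (SE 0.52) did not pass (edgeR adjusted p = 0.974) and had no stable sign, with -0.31 when libraries were scaled by their total without miR-148a-3p, 0.54 without Chow 2 and -0.21 without Chow 3.

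miR-139-3p, its partner strand, was near the limit of detection. It had 12, 4 and 13 counts in HFD 1 to HFD 3 and 0, 1, 0 and 9 in Chow 1 to Chow 4. Only Chow 4 among the Chow libraries had more than the 3 counts of the floor, and the highest level in any library was 5.6 normalised CPM, in HFD 1. The entry was removed by the filter on low counts and was not tested. With no filter its log2 fold change was 0.63 (edgeR adjusted p = 0.677).

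Counts of different strands also depend on how well each is captured, which was not tested. On the normalised CPM scale, the order of levels within each diet began with miR-126a-3p and miR-139-5p. In HFD libraries miR-126a-5p with miR-126b-3p, then miR-126b-5p and then miR-139-3p followed without overlap. In Chow libraries miR-126a-5p (57.9 ± 50.0, SD, n = 4) and miR-126b-5p (39.7 ± 14.3) did not differ beyond their spread.

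**Figure D3:**
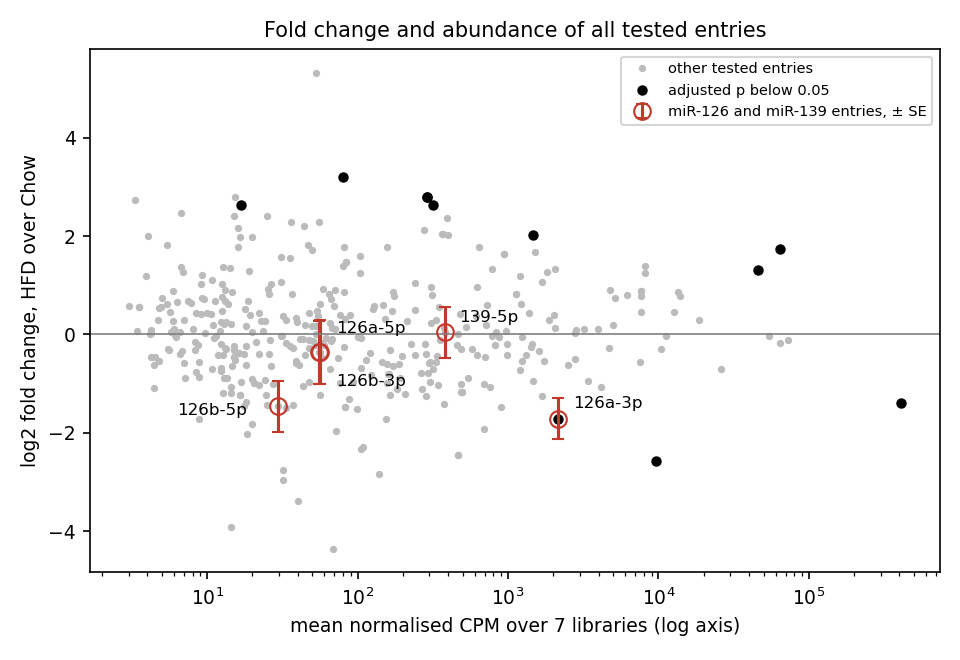
Log2 fold change (HFD over Chow) against mean normalised CPM (log axis) for the 385 tested entries, with black dots at an adjusted p below 0.05 and red circles with SE bars for the 5 tested entries of the miR-126 and miR-139 loci. miR-126a-3p lies at -1.71 and miR-139-5p at 0.04.

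Set against each other, the loci stood in proportions that did not overlap between the diets. The ratio of miR-126a-3p to miR-139-5p counts needs no scaling factor, because both come from the same library. There were 2.10, 2.42 and 2.81 counts of miR-126a-3p for each count of miR-139-5p in HFD 1 to HFD 3. There were 9.0, 6.99, 17.8 and 6.71 in Chow 1 to Chow 4. The diets did not overlap, as for 22.3% of all tested single entries, and the lowest Chow ratio was well above the highest HFD ratio. This ratio is not independent of the miR-126a-3p difference (log2 fold change -1.71), as the fold change of miR-139-5p was 0.04. Put as a share, miR-139-5p made up 32.2%, 29.3% and 26.3% of the counts of both strands in HFD 1 to HFD 3. It made up 10%, 12.5%, 5.31% and 13.0% in Chow 1 to Chow 4. The exact binomial (Clopper-Pearson) 95% intervals of the diets did not meet. The lowest bound in HFD was 25.3%, in HFD 3, and the highest in Chow was 14.5%, in Chow 2.

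The mean log2 ratio, with 0.5 added to each count, was 1.28 ± 0.21 in HFD (SD, n = 3) and 3.19 ± 0.60 in Chow (SD, n = 4), a difference of -1.91. This corresponds to a ratio 3.77-fold lower in HFD. The exact two-sided permutation p over 35 assignments was 0.0571, the smallest that doubling the one-sided p allows, and 0.0857 after adjustment over the 3 ratios compared, so it did not pass. With the absolute difference of the means as statistic, the exact permutation p was 0.0286 and the adjusted p again 0.0857. The difference lay between -2.06 and -1.63 in all 12 alternatives, and was -1.68 without Chow 2 and Chow 3. Not all 12 are separate checks. The absolute difference as statistic leaves the size unchanged by construction. Pairing libraries by their number gives the same value as leaving out Chow 4 (-2.06).

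**Figure D4:**
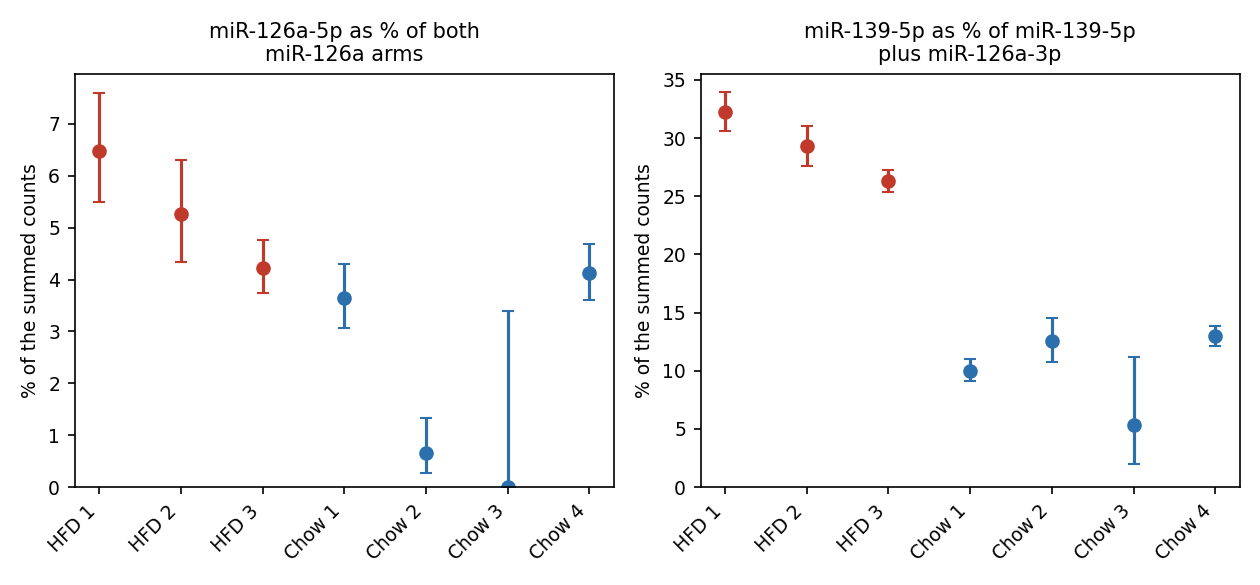
Share of miR-126a-5p among the counts of both miR-126a arms (left) and of miR-139-5p among the counts of miR-139-5p and miR-126a-3p (right), in percent per library, with exact 95% binomial intervals, HFD in red left of Chow in blue. On the right the HFD libraries lie between 26.3% and 32.2% and the Chow libraries between 5.31% and 13.0%, and on the left HFD 3 (4.23%) and Chow 4 (4.12%) are nearly level.

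The proportion of the miR-126a arms also did not overlap between the diets, as for 22.3% of all tested single entries, but its size rested on the shallow libraries. miR-126a-5p made up 6.48%, 5.26% and 4.23% of the counts of both arms in HFD 1 to HFD 3. It made up 3.65%, 0.651%, 0% and 4.12% in Chow 1 to Chow 4. No HFD share fell within the Chow range, yet some intervals met. That of HFD 3 (3.75% to 4.76%) met those of Chow 1 (3.08% to 4.29%) and Chow 4 (3.61% to 4.69%). The interval of HFD 2 (4.34% to 6.30%) also met that of Chow 4. The 0 of 107 counts in Chow 3 give an interval up to 3.39%, and the 7 counts in Chow 2 give an interval of 0.262% to 1.34%. The mean log2 ratio of 3p to 5p was 4.17 ± 0.33 in HFD (SD, n = 3) and 6.04 ± 1.65 in Chow (SD, n = 4), a difference of -1.87 (exact permutation p = 0.0571, which became 0.0857 after adjustment, and 0.143 with the absolute difference as statistic). In the 5 deeper libraries it was -0.46 (exact permutation p = 0.2, the smallest that 3 against 2 libraries allow). The arm ratio of miR-139 could not be read in either direction. Its log2 difference of 0.44 (exact permutation p = 0.743) became -0.97 without Chow 2 and Chow 3.

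**Figure D5:**
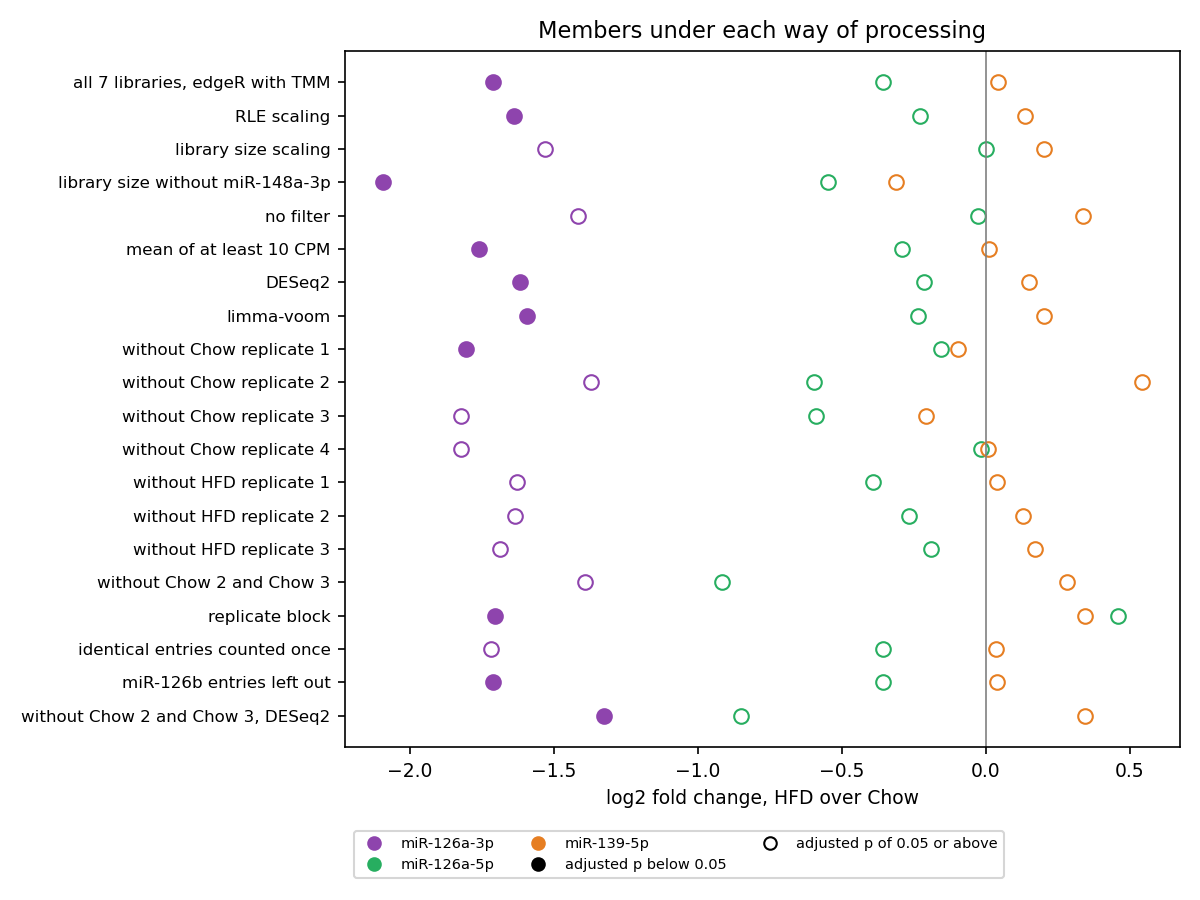
Log2 fold change (HFD over Chow) of miR-126a-3p, miR-126a-5p and miR-139-5p in the fit of all 7 libraries (top row) and in 19 alternatives (a row each), with filled circles at an adjusted p below 0.05. miR-126a-3p stays between -2.09 and -1.33 and is filled in 9 of the alternatives, and miR-126a-5p and miR-139-5p lie on both sides of 0 and are never filled.

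Across the 7 libraries the profiles of the loci were not alike. Log2 normalised CPM of miR-126a-3p had a Pearson r of 0.11 with miR-139-5p and of -0.18 with its own partner miR-126a-5p. The logs were taken after adding a small count scaled to library depth, which sets the miR-126a-5p value of Chow 3. The value of -0.18 includes Chow 2 and Chow 3, where miR-126a-5p had only 7 and 0 counts, so it does not show that the arms diverge. In Chow 1 and Chow 4 both arms stood above all HFD libraries. Among 158 other tested entries with a mean of at least 100 normalised CPM, those most like miR-126a-3p were miR-100-5p (r = 0.96), miR-672-5p (0.94), miR-187-3p (0.93), miR-143-3p (0.92) and miR-1843b-5p (0.92). All 5 had a negative fold change, which choosing them by likeness over libraries of both diets largely fixed in advance. Only miR-143-3p, abundant in smooth muscle, passed (log2 fold change -2.58, edgeR adjusted p = 0.0224). miR-100-5p averaged 2557 ± 330.1 normalised CPM in HFD (SD, n = 3) and 5322 ± 1519 in Chow (SD, n = 4). Those most like miR-139-5p were miR-674-3p (0.88), miR-501-3p (0.84), miR-23b-3p (0.79), let-7d-3p (0.79) and miR-3074-5p (0.76), and none of them passed. miR-3074-5p overlaps miR-24-3p on the opposite strand and had nearly the same total count (139947 against 140087), so the 2 are not separate measurements. These r values describe 7 libraries that differ in depth and diet.

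Other miRNAs known from blood vessel growth were called about as rarely as all entries. Of 32 listed, 31 were in the table and 29 were tested. Of these, 1 rose (miR-21a-5p) and none fell, where 2.08% of all tested entries rose and 0.779% fell. The sign was positive for 17 of the 29, and their median log2 difference was 0.42, against -0.02 over all tested entries. miR-21a-5p, widely reported in inflamed and injured tissue as well as in vessels, averaged 107307 normalised CPM in HFD and 31964 in Chow (log2 fold change 1.75, edgeR adjusted p = 0.0328). The next smallest p-values were those of miR-221-3p (log2 fold change 1.33, edgeR adjusted p = 0.0642) and miR-222-3p (0.96, 0.194), which restrain Kit signalling in endothelial cells, and of miR-27b-3p (0.78, 0.172) and miR-24-3p (0.88, 0.197). miR-92a-3p, known as an inhibitor of vessel growth, had -1.01 (edgeR adjusted p = 0.284).

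Some markers of other cells moved with diet beside these loci. The counts are to be read against the 2.08% of all tested entries that rose and the 0.779% that fell. Of 9 miRNAs of smooth muscle and stroma, all tested, 1 fell (miR-143-3p) and none rose, with a median of -0.29. Their summed level was 5953 to 7564 normalised CPM in HFD libraries and 15344 to 25047 in Chow libraries, mostly miR-143-3p in Chow. Of 10 leukocyte miRNAs, 4 rose (miR-223-3p, miR-342-3p and both arms of miR-142a), none fell and all 10 had a positive fold change, with a median of 1.81 and sums of 12003 to 21096 in HFD and 3987 to 8513 in Chow. The leukocyte sums were mostly miR-146a-5p (means of 12254 in HFD and 5123 in Chow), which did not pass (edgeR adjusted p = 0.0642). Of 5 red cell miRNAs none passed, 2 had a positive and 3 a negative fold change, and the median was -0.43. Their sums were 759 to 2316 in HFD and 2269 to 3319 in Chow. Of 11 adipose-associated miRNAs, 2 fell (miR-148a-3p and again miR-143-3p) and none passed as higher, with a median of -0.71 and sums of 220046 to 285070 in HFD and 422442 to 865148 in Chow. The adipose sums were mostly miR-148a-3p (means of 212924 in HFD and 558623 in Chow). No entry of these lists was at 0 in all libraries. The part of these cell types in the miR-126a-3p difference was not tested.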

How the data were processed

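Small RNA from adipose tissue vesicles was sequenced in 3 HFD and 4 Chow libraries. Per the file headers, the values deposited are unnormalised counts of reads for every mature miRNA. The submitters' processing notes name Bowtie but no version. How reads were counted, against which build and release, and with what filters is not given in the sources used here. All tests used the table of 7 libraries.

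Counts were tested in R 4.3.3 with edgeR 4.0.16 (quasi-likelihood F test, TMM scaling, filterByExpr, diet as the only term, Benjamini-Hochberg adjustment over 385 entries, threshold 0.05). SE was derived from the F statistic. Count ratios, with 0.5 added, were compared by exact permutation of the 7 libraries, with the two-sided p as the doubled one-sided p. Alternatives were other scalings and filters, DESeq2 1.42.0, limma-voom (limma 3.58.1), omission of libraries, a replicate block, other pseudocounts and duplicate entries counted once. Leaving out miR-126b, DESeq2 without Chow 2 and Chow 3, and the absolute difference as test statistic were added after the data were seen. The fit was checked on simulated counts. All 6 entries, list members past the threshold, up to 4 more per list by p, the 5 most correlated entries per guide strand and entries sharing a seed could be named, and miR-92a-3p was named after its value was seen. Members and lists were chosen with earlier results of these data known.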

Additional observations from a re-analysis of the deposited data

Results flagged for a closer look

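In Chow, the normalised CPM of miR-126a-3p in Chow 2, 5025, stood far from those of Chow 1, Chow 3 and Chow 4, which lay between 2357 and 2473. The gap was flagged by Dixon's test at the 95% level, which flags about 1 in 20 groups by chance, and 9 Chow groups of values were examined. Chow 2 was also the highest Chow library for miR-139-5p, at 719, a value that was not flagged.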

How the results depend on the processing

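Of 19 alternatives for miR-126a-3p, 9 kept the call. It was lost, with log2 fold changes of -1.53 under library size scaling, -1.42 without a filter, -1.39 without Chow 2 and Chow 3 and -1.72 with identical entries counted once, and in 6 of 7 omissions of a single library (-1.82 to -1.37). Every alternative gave a negative value, and the cause of the lost calls was not tested. The omissions also left fewer libraries, and whether this lost the calls was not tested either. Uncalled values changed sign for miR-126a-5p under library size scaling (0.00079) and the replicate block (0.46), for miR-126b-3p under the block (0.45), and for miR-139-5p with scaling without miR-148a-3p (-0.31) and over single omissions (-0.21 to 0.54). The miR-139 arm ratio turned to -0.97 without Chow 2 and Chow 3 and ranged from -0.53 to 1.47 over single omissions. Relative to the median of all entries, which library size scaling shifted by 0.33 and scaling without miR-148a-3p by -0.22, miR-126a-3p stood between -1.85 and -1.69. The 11 calls over all entries became 18 with RLE scaling, 39 with library size scaling (36 higher, 3 lower), 62 without a filter, 49 in DESeq2, 23 with the block and 0 to 32 over single omissions. Without HFD 2 none passed (57 at an unadjusted p under 0.05 in edgeR). Without Chow 2 and Chow 3, edgeR gave 0 calls (95 entries had an unadjusted p under 0.05) and DESeq2 36. Deviations from the diet means had r of 0.07, -0.16 and 0.04 for same-numbered libraries, and between -0.29 and 0.31 for differently numbered ones. With so few libraries per diet, these values cannot decide whether the numbers pair them. The block gave -1.70 for miR-126a-3p (edgeR adjusted p = 0.0490) and 0.35 for miR-139-5p. For the log2 ratios it gave -2.06 (miR-126a-3p to miR-139-5p), -2.37 and 0.36 (miR-126a and miR-139 arms). Chow 4 has no HFD library of the same number and was left out of the ratio block. These ratio values therefore equal those without Chow 4 and are not a separate check. With the absolute difference as statistic, the exact permutation p of the miR-126a-3p to miR-139-5p ratio was 0.0286 and its adjusted p 0.0857, whereas the miR-126a arm ratio had 0.143 and 0.214, and the miR-139 arm ratio 0.686 for both. Depth limits the scarce strands in Chow 2 and Chow 3. miR-139-3p, removed by the filter, has no value in the fit of all libraries to compare.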
